A study of Saccharomyces cerevisiae with 6 samples.

Results

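The genes described here are *GCN4*, which encodes the transcription activator of amino acid biosynthesis, and 53 genes for enzymes of amino acid pathways. These pathways make histidine, lysine, the aromatic amino acids, threonine, serine and glycine, asparagine, proline and the branched-chain amino acids. The enzymes of *ARO9*, *GCV1* and *GCV2*, grouped with them here, are known for breakdown. The list was written by systematic gene identifier with no threshold on the measured values, and holds 54 of the 7445 features in the count table. Enzymes of arginine synthesis and of the sulfur pathway were not among them and appear only for comparison. *HIS3*, *LEU2* and *TRP1* were left out because they serve as selection markers in strains of this background. All 54 genes had enough reads to be tested. Their mean per culture ran from 1554 to 289976 counts.

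RNA was sequenced from 6 cultures of 1 haploid *MATa* budding yeast strain of the W303 background (W303-1A in the study's methods). In all of them Rio1, a conserved protein kinase, carried an auxin-inducible degron (*RIO1-AID::KanMX4*), and the plant F-box protein that recognises this degron was made from the *ADH1* promoter (*PADH1-OsTIR1-9myc::URA3*). For the W303-1A parent, the study's strain list gives mutant alleles of *HIS3*, *LEU2*, *TRP1*, *ADE2*, *URA3* and *CAN1*. The groups were 3 exponentially growing cultures that received a mock and 3 that received the plant hormone auxin, indole-acetic acid, at 500 µM for 1 h, all in rich medium with glucose and added adenine. Cells without the degron that received auxin were not analysed here, so an effect of the loss of Rio1 and an effect of auxin cannot be told apart.

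Each culture gave between 110119744 and 125303818 counts. These totals are several times the number of mapped read pairs per sample that the study reports, and the sources used here do not say why. Levels are given as CPM, which are counts per 1000000 of each library's total after scaling with edgeR's TMM factors. These factors moved with the treatment, from 0.902 to 0.928 in the mock-treated and from 1.086 to 1.093 in the auxin-treated cultures. Without them the median log2 fold change over all tested features was 0.25 and not 0.00, so every difference here is relative to the bulk of the transcriptome, and for the genes and sums named, directions that turn without these factors are given. *RIO1* mRNA itself was at 19.8, 21.9 and 22.8 CPM in the mock-treated and 40.9, 39.4 and 42.7 CPM in the auxin-treated cultures, and does not report on the Rio1 protein that the degron removes. The *MATa* marker genes *MFA1*, *MFA2*, *STE2* and *BAR1* were at 118 to 699 CPM and the *MATalpha* markers at 0.44 to 1.81 CPM, as the labelled mating type has it. In bulk RNA, fewer cells that express a gene and less RNA per cell cannot be told apart.

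In yeast, starvation for almost any amino acid raises the synthesis of enzymes for many of them at once, a response known as general amino acid control. Uncharged tRNA activates the kinase Gcn2, which phosphorylates the initiation factor eIF2, and the resulting drop in initiation lets ribosomes pass the short upstream reading frames of the *GCN4* mRNA and translate Gcn4. The level of *GCN4* mRNA therefore does not measure the amount of Gcn4 protein, which was not determined here. Gcn4 is a leucine zipper protein that binds the sequence TGACTC, best when followed by A, in front of its target genes, and the activator Bas1 binds the same core. Several pathways have their own activator beside Gcn4, such as Leu3 for branched-chain, Lys14 for lysine and Aro80 for aromatic amino acids.

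Most of these genes were lower in the auxin-treated cultures, by small amounts. A gene was called where edgeR's quasi-likelihood test gave an adjusted p no larger than 0.05. By this measure 43 of the 54 genes were lower (79.6%), 7 were higher and 4 were not called. Over all 6397 tested features, 38.5% were called lower and 38.5% higher, 77.0% in all. The median log2 fold change was -0.30, against 0.00 over all tested features. *HIS4* and *HIS1* were also lower by at least 1 on the log2 scale (3.70% of the genes, against 2.55% of all features), and no gene was higher by as much, as 7.72% of all features were. In either direction 10.3% of all features passed both limits. The CPM of the mock-treated and auxin-treated cultures did not overlap for 50 of the 54 genes, 42 lower and 8 higher with auxin, where 39.3% of all features were apart in each direction and 78.6% in all.

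The size of the imbalance depended on the reference. These are abundant mRNAs, and abundant mRNAs were more often lower in general. Of the 4722 features with a mean of at least 13.2 CPM, that of the least abundant of the 54 genes, 46.2% were lower and 33.4% higher. Both limits were passed by 3.73% of these features, 45 of them higher and 131 lower. Among the 882 features with a mean of at least 217 CPM, the median over the 54 genes, 58.0% were lower and the median log2 fold change was -0.15. Both limits were passed by 8.28% of the 882, 8 of them higher and 65 lower. These comparisons were chosen after the levels had been seen. With total counts in place of TMM factors, 26 of the 54 genes were lower (48.1%) and 17 higher (31.5%), against 16.8% lower and 64.6% higher over all features, while their median stayed 0.30 below the median of all features on the log2 scale.

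**Figure D1:**
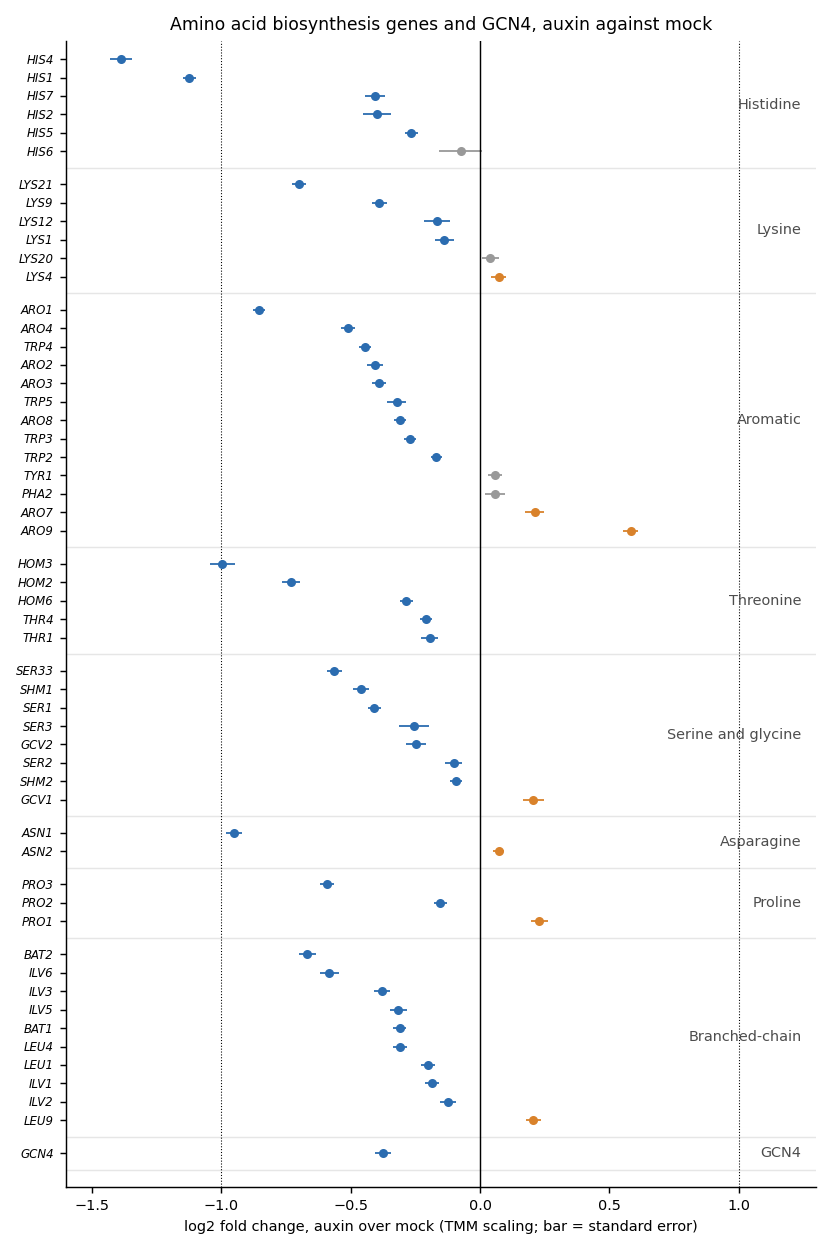
Log2 fold change (auxin over mock, TMM scaling) of the 54 genes, grouped by pathway, with standard errors as bars. Blue points were called lower and orange points higher by edgeR's test, grey points were not called, and the dotted lines mark -1 and 1. The points reach from -1.39 for *HIS4* to 0.58 for *ARO9*, 43 of them blue, and with total counts in place of TMM factors 26 were lower and 17 higher.

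Summed over all 54 genes, the mean of the transcripts was 21610 ± 430.1 CPM with the mock and 17077 ± 103 CPM with auxin (SD, n = 3). The auxin-treated sum was 0.790 of the mock-treated one, and 0.938 of it with total counts. The histidine genes had the lowest ratio of summed CPM, 0.541, followed by asparagine with 0.720 and threonine with 0.749. The aromatic genes came to 0.785, serine and glycine to 0.797, the branched-chain genes to 0.829, proline to 0.856 and lysine to 0.873. In all 8 pathways every auxin-treated culture had a lower sum than every mock-treated one. With total counts this held for 5 of them, and most ratios were nearer to 1. They were 0.643 for histidine, 0.855 for asparagine, 0.890 for threonine, 0.932 for the aromatic genes and 0.946 for serine and glycine. The lysine sums were then higher with auxin without overlap (ratio 1.04), and the proline (ratio 1.02) and branched-chain sums (ratio 0.984) overlapped. Per kilobase of gene length in the mock-treated cultures, the acetohydroxyacid reductoisomerase gene *ILV5* was the most abundant at 2313 CPM per kilobase, then *GCN4* at 1605 and *ASN1* at 866. The glycine decarboxylase subunit gene *GCV1* was the least abundant at 14.9 CPM per kilobase.

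*GCN4* (YEL009C, chrV:138918-139763, minus strand) was at 1369, 1388 and 1317 CPM in the mock-treated and at 1064, 1060.5 and 1017 CPM in the auxin-treated cultures. All auxin-treated cultures were below all mock-treated ones. The mean went from 1358 ± 37.0 to 1047 ± 26.2 CPM (SD, n = 3), a log2 fold change of -0.37 (SE 0.030, edgeR adjusted p = 2.24e-06), and was -0.13 with total counts. Of the 53 enzyme genes, 32 had a higher and 21 a lower log2 fold change than *GCN4*.

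The Gcn4 site was common in front of these genes. In the windows from 250 bases before to 50 bases after the start codon, read from assembly R64 on both strands, TGACTC was present for 31 of the 54 genes (57.4%), against 479 of 6001 windows of nuclear protein-coding genes (7.98%). The longer TGACTCA, which contains the former, was present for 18 (33.3%), against 2.73% of all windows. The windows were read from the reference strain and may differ in the W303 strain. Single stretches of at most 30 bases are shown for the 8 genes with the site that were lowered most and the 2 that were higher, read 5′ to 3′ along the strand of the gene, with TGACTC or its reverse complement GAGTCA in capitals and positions counted from the A of the start codon as 0:
HIS4, chrIII:68515-68544 (minus strand), capitals from position -199: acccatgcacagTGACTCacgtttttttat
HIS1, chrV:265951-265980 (minus strand), capitals from position -183: aagcttccaagtGAGTCAcctctaccgttg
ASN1, chrXVI:822381-822410 (plus strand), capitals from position -227: tcatgtaacattTGACTCattctgtaaact
ASN2, chrVII:739735-739764 (plus strand), capitals from position -197: ttttcttagcatTGACTCatggcaagattt
ARO1, chrIV:704249-704278 (plus strand), capitals from position -223: ttgtcatgcataTGACTCatcccgaacatg
HOM2, chrIV:770161-770190 (plus strand), capitals from position -184: tcaagcattgatTGACTCattttcctctga
SER33, chrIX:222627-222656 (minus strand), capitals from position -154: cacgctggaaacGAGTCAccgttatgaaaa
PRO3, chrV:200870-200899 (plus strand), capitals from position -194: gtgtaatatcctGAGTCActccttaaacct
ILV6, chrIII:105681-105710 (minus strand), capitals from position -150: tcaccgttatcgTGACTCactttctttcgc
GCV1, chrIV:485491-485520 (minus strand), capitals from position -143: gctcaggagcccTGACTCgtgttgcctcga
In *HIS4*, *HIS1*, *ASN1*, *ASN2*, *ARO1*, *HOM2*, *PRO3* and *ILV6* the core is part of the longer TGACTCA, whereas in *SER33* and *GCV1* it is not. *HIS4* holds another TGACTC, from position -243. A match of letters is a description of the sequence, and binding of Gcn4 was not measured.

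Genes with and without the site were both mostly lower. Over all tested features 38.5% were lower and 38.5% higher, with a median log2 fold change of 0.00. Of the 31 genes with TGACTC, 27 were lower and 2 higher in edgeR's test, with a median log2 fold change of -0.27, and of the 23 without it, 16 were lower and 5 higher, with a median of -0.31. With TGACTCA, 17 of 18 were lower and 1, *ASN2*, was higher, with a median of -0.35. The 36 genes without the longer site had 26 lower and 6 higher and a median of -0.23. The aspartate kinase gene *HOM3*, *LYS21*, *BAT2* and *ARO4* were among the lower genes and held no TGACTC in the window. Outside the 54 genes, 442 tested genes had TGACTC in the window, of which 44.8% were lower and 33.7% higher, with a median of -0.054. The 145 tested with TGACTCA had 50.3% lower and a median of -0.14. Counts by motif were made with TMM factors only, and an effect of the site was not tested.

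**Figure D2:**
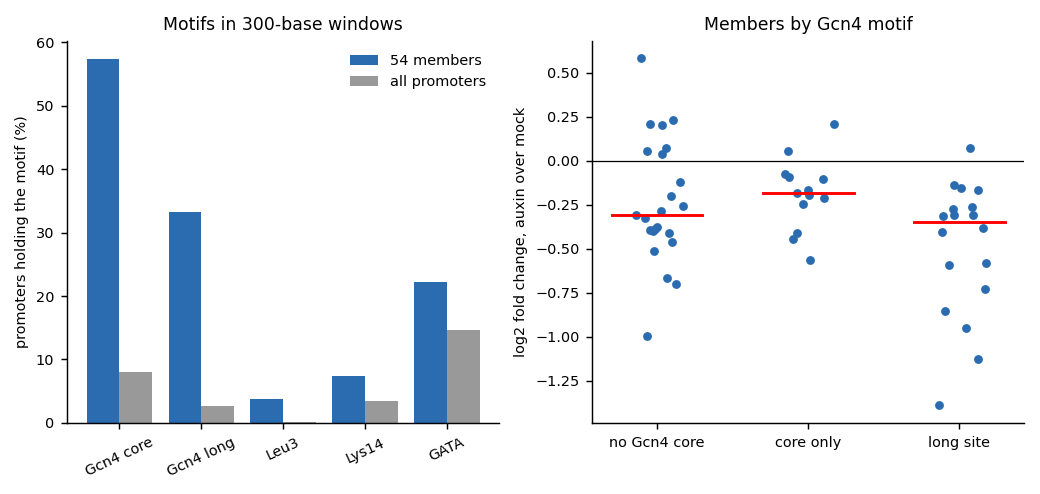
Left, the share of windows of 300 bases that hold each motif, for the 54 genes (blue bars) and all 6001 windows (grey bars), with the Gcn4 core TGACTC at 57.4% and 7.98%. Right, log2 fold change (auxin over mock, TMM scaling) of the genes without the core, with the core only and with the longer TGACTCA, each point a gene and each red line a median; the 3 sets overlap over most of their range.

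The sites of pathway activators were rarer. The Leu3 motif, CCGG followed by any 2 bases and again CCGG, was present for 2 genes, *LEU1* and *BAT1* (3.70%), against 0.133% of all windows, and both genes act in branched-chain synthesis, which Leu3 controls. They are shown because only 8 windows in the genome hold this motif, with the motif in capitals:
LEU1, chrVII:478850-478879 (minus strand), capitals from position -217: aacgaaaattCCGGGACCGGcgaaatttgc
BAT1, chrVIII:517375-517404 (plus strand), capitals from position -147: attgtgtttgCCGGTACCGGcctttaagct
The Lys14 motif TCCNNNGGA was present for 4 genes (7.41%, against 3.40% of all windows), namely the lysine genes *LYS1*, *LYS9* and *LYS12* and the leucine gene *LEU9*. GATAAG, bound by the GATA factors of nitrogen control, was present for 12 genes (22.2%, against 14.7%). In these 54 windows no match of a motif overlapped one of another, except that TGACTCA contains TGACTC.

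The histidine pathway held the largest falls. *HIS4* (YCL030C, chrIII:65934-68333, minus strand), which encodes a multifunctional enzyme that includes the last step of histidine synthesis, was at 114, 115 and 103 CPM with the mock and at 41.6, 42.1 and 43.2 CPM with auxin. The groups were far apart, and the third mock-treated culture was the lowest of its group. The means were 111 ± 6.76 and 42.3 ± 0.809 CPM (SD, n = 3), with a log2 fold change of -1.39 (SE 0.043, edgeR adjusted p = 4.44e-09).

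*HIS1* (YER055C, chrV:264892-265785, minus strand) encodes ATP phosphoribosyltransferase, the first enzyme of the pathway. It was at 309, 308 and 296 CPM with the mock and 140.2, 139.5 and 139 CPM with auxin. The auxin-treated cultures were nearly identical and well below every mock-treated one. The means were 304 ± 7.51 and 139.5 ± 0.677 CPM (SD, n = 3) and the log2 fold change was -1.13 (SE 0.025, edgeR adjusted p = 9.78e-10). Tested against a log2 fold change of 1 rather than against no change, *HIS4* (edgeR glmTreat adjusted p = 3.03e-05) and *HIS1* (edgeR glmTreat adjusted p = 0.00187) were still called. With total counts *HIS1* fell by less, at -0.88.

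The other histidine genes moved less. *HIS7*, for the glutamine amidotransferase and cyclase, *HIS2*, for histidinol phosphatase, and *HIS5*, for histidinol-phosphate aminotransferase, were lower in edgeR's test with log2 fold changes of -0.41, -0.40 and -0.27. The isomerase gene *HIS6* was at 12.2, 13.2 and 15.2 CPM with the mock and 12.7, 11.9 and 13.9 CPM with auxin. These values overlapped, and at -0.075 (SE 0.083, edgeR adjusted p = 0.43) *HIS6* was the only histidine gene not called, at 0.17 with total counts and 0.0047 without the third mock-treated culture. It was also the least abundant by CPM of the pathway.

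Lysine synthesis in fungi runs through homocitrate and α-aminoadipate. Of its 6 genes 4 were lower, 1 higher and 1 not called in edgeR's test, against 38.5% of all features in each direction. The median log2 fold change was -0.15. With total counts 2 were lower and 3 higher, against 16.8% and 64.6% of all features. The homocitrate synthase gene *LYS21* was at 213, 223 and 222 CPM with the mock and 133, 137 and 135 CPM with auxin. The groups did not overlap, and the log2 fold change was -0.70 (SE 0.026, edgeR adjusted p = 1.12e-08). The other homocitrate synthase gene, *LYS20*, was at 223, 239 and 242 CPM with the mock and 238, 239 and 248 CPM with auxin. These values overlapped and the log2 fold change was 0.04 (SE 0.034, edgeR adjusted p = 0.311), or -0.0032 without the first mock-treated culture. The coding sequences of this pair are 91.4% identical, and only 75.6% of the windows of 100 bases in *LYS20* and 76.3% in *LYS21* were unique in the genome, so their separate counts are less certain than those of the other genes, which were unique throughout.

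The homoaconitase gene *LYS4* was at 179, 191 and 186 CPM with the mock and 191, 195 and 199 CPM with auxin. The groups touched without overlap. Its log2 fold change was 0.072 (edgeR adjusted p = 0.0454), and the call was lost when any culture but the second mock-treated one was left out, with values from 0.040 to 0.085. The saccharopine-forming and saccharopine-cleaving dehydrogenase genes *LYS9* and *LYS1* were lower at -0.39 and -0.14. The homoisocitrate dehydrogenase gene *LYS12* was lower at -0.17 although its groups overlapped, and its edgeR call was lost without the second mock-treated culture (-0.16) and without the first auxin-treated culture (-0.14). *LYS1* and *LYS12* were at 0.11 and 0.082 with total counts.

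Aromatic amino acids are made from chorismate, the end of the shikimate pathway, which then branches to tryptophan and to phenylalanine and tyrosine. Of the 13 genes 9 were lower, 2 higher and 2 not called in edgeR's test, against 38.5% of all features in each direction. The median log2 fold change was -0.31. With total counts 6 were lower and 5 higher, against 16.8% and 64.6% of all features. *ARO1* (YDR127W, chrIV:704484-709250, plus strand), whose product carries out most steps of the shikimate pathway on a single polypeptide, was at 695, 701 and 703 CPM with the mock and 382, 385 and 394 CPM with auxin. The groups were well apart, at 699.8 ± 4.28 and 387 ± 6.10 CPM (SD, n = 3), a log2 fold change of -0.85 (SE 0.023, edgeR adjusted p = 2.39e-09). The genes of DAHP synthase, which commits carbon to the pathway, were lower at -0.51 for *ARO4* and -0.39 for *ARO3*, and the chorismate synthase gene *ARO2* at -0.41.

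All 4 genes of the tryptophan branch were lower in edgeR's test, as 38.5% of all features were. *TRP4* was at -0.45, *TRP5* at -0.32, *TRP3* at -0.27 and *TRP2* at -0.17. With total counts *TRP2* was called higher, at 0.079 (edgeR adjusted p = 0.00995), and *TRP3* and *TRP5*, at -0.025 and -0.075, were not called. In the branch to phenylalanine and tyrosine, the chorismate mutase gene *ARO7* was higher, from 92.0 ± 2.09 to 107 ± 5.45 CPM (SD, n = 3; log2 fold change 0.21, edgeR adjusted p = 6.09e-04). The prephenate dehydrogenase gene *TYR1* and the prephenate dehydratase gene *PHA2* were at 0.057 and 0.058 and were not called. With total counts both were called higher, at 0.31. *PHA2* passed without the third auxin-treated culture, at 0.091 (edgeR adjusted p = 0.0387).

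The aromatic aminotransferase genes moved in opposite directions. *ARO9* (YHR137W, chrVIII:375709-377250, plus strand), the isoform known for amino acid breakdown and induced through Aro80 by aromatic amino acids, was at 165, 176 and 169.8 CPM with the mock and 249.8, 254 and 262 CPM with auxin. Every auxin-treated culture was above every mock-treated one, and with a log2 fold change of 0.58 (SE 0.030, edgeR adjusted p = 9.75e-08) *ARO9* was the most raised of the 54 genes. *ARO8*, the isoform known for synthesis, was at 608, 610.3 and 594 CPM with the mock and 485, 493 and 483 CPM with auxin. It was lower without overlap, at -0.31 (SE 0.023, edgeR adjusted p = 1.27e-06). The phenylpyruvate decarboxylase gene *ARO10*, which like *ARO9* is a target of Aro80, went from 231 ± 1.58 to 337 ± 11.3 CPM (SD, n = 3), a log2 fold change of 0.54 (edgeR adjusted p = 8.95e-08). *ARO80* mRNA was at 40.6 and 43.7 CPM, a log2 fold change of 0.11.

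**Figure D3:**
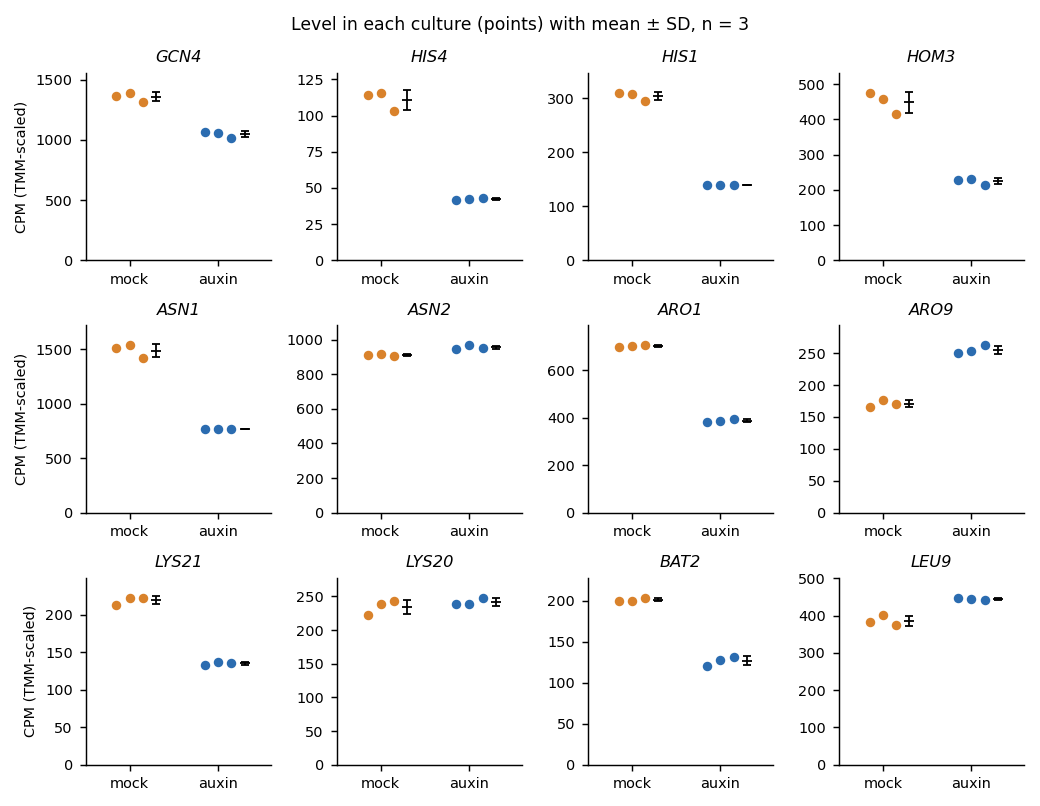
CPM (TMM-scaled) of 12 genes in each of the 3 mock-treated (orange) and 3 auxin-treated (blue) cultures, with the mean and SD beside the points and every axis starting at 0. *HIS4*, *HIS1*, *HOM3*, *ASN1*, *ARO1*, *LYS21*, *BAT2* and *GCN4* were lower with auxin without overlap, *ARO9*, *LEU9* and *ASN2* were higher, and the groups of *LYS20* overlapped, at 0.29 on the log2 scale with total counts.

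Threonine and the precursor homoserine are made from aspartate. All 5 genes of this pathway were lower in edgeR's test, as 38.5% of all features were, with a median log2 fold change of -0.28. With total counts 2 were still called lower and none higher, against 16.8% and 64.6% of all features. *HOM3* (YER052C, chrV:256375-257958, minus strand), which encodes aspartate kinase, the first and feedback-inhibited enzyme, was at 474, 457 and 416 CPM with the mock and 227, 232 and 215 CPM with auxin. The third culture was the lowest in both groups, and the groups did not overlap. The means of 449 ± 30.2 and 225 ± 8.88 CPM (SD, n = 3) gave a log2 fold change of -0.998 (SE 0.048, edgeR adjusted p = 6.04e-08), just short of the limit of 1. It passed that limit without the third mock-treated (-1.06), the first auxin-treated (-1.01) or the second auxin-treated culture (-1.02), and narrowly with DESeq2 (-1.001) and with no filter on low counts (-1.01). The next enzyme's gene *HOM2*, for aspartate semialdehyde dehydrogenase, was lower at -0.73, and the homoserine dehydrogenase gene *HOM6* at -0.28.

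The last steps moved least. The homoserine kinase gene *THR1* was at 552, 586 and 545 CPM with the mock and 489.7, 501 and 479.7 CPM with auxin. The groups did not overlap, and the log2 fold change was -0.19 (SE 0.032, edgeR adjusted p = 3.56e-04). The threonine synthase gene *THR4* was at -0.21. With total counts *THR1* and *THR4* were at 0.054 and 0.039 and were not called.

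Serine is made from phosphoglycerate and is turned into glycine by serine hydroxymethyltransferase, and the glycine decarboxylase complex breaks glycine down. Of these 8 genes 7 were lower and 1 higher in edgeR's test, against 38.5% of all features in each direction. The median log2 fold change was -0.25. With total counts 3 were lower and 3 higher, against 16.8% and 64.6% of all features. The phosphoglycerate dehydrogenase gene *SER33* was at 171, 162 and 159.5 CPM with the mock and 113, 111 and 109 CPM with auxin. The groups did not overlap, and the log2 fold change was -0.56 (SE 0.030, edgeR adjusted p = 1.19e-07). The phosphoserine aminotransferase gene *SER1* was lower at -0.41, and the phosphatase gene *SER2* at -0.10, a call that edgeR did not make without the second mock-treated culture (-0.086), the first auxin-treated culture (-0.10) or the second auxin-treated culture (-0.093).

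*SER3* (YER081W, chrV:322686-324095, plus strand) is the other phosphoglycerate dehydrogenase gene. It is known to be repressed by transcription of the noncoding *SRG1* RNA across its promoter. *SER3* went from 105 ± 9.07 to 88.0 ± 4.11 CPM (SD, n = 3; log2 fold change -0.26, edgeR adjusted p = 0.0028). *SRG1* was at 22.3, 18.1 and 16.9 CPM with the mock and 31.6, 30.4 and 31.4 CPM with auxin. It was higher with auxin without overlap, at 0.71 (edgeR adjusted p = 3.67e-05). The features share 77 bases on the same strand, so reads there cannot be given to one of them with certainty. With total counts *SER3* was at -0.0082.

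Mitochondrial *SHM1* and cytosolic *SHM2*, the serine hydroxymethyltransferase genes, were lower at -0.46 and -0.093 in edgeR's test, the latter at 0.15 with total counts. The glycine decarboxylase subunit gene *GCV1* was at 18.3, 17.3 and 18.1 CPM with the mock and 21.01, 20.95 and 19.97 CPM with auxin. It was higher by a little without overlap, at 0.21 (SE 0.040, edgeR adjusted p = 0.00103). The gene of another subunit, *GCV2*, was lower at -0.25.

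The asparagine synthetase genes went apart. *ASN1* (YPR145W, chrXVI:822620-824338, plus strand) was at 1508, 1535 and 1421 CPM with the mock and 771, 769.8 and 767 CPM with auxin. The auxin-treated cultures were nearly identical and far below the mock-treated ones. The means were 1488 ± 59.4 and 769 ± 2.21 CPM (SD, n = 3), with a log2 fold change of -0.95 (SE 0.032, edgeR adjusted p = 6.50e-09). *ASN2* (YGR124W, chrVII:739944-741662, plus strand) was at 911, 917 and 905 CPM with the mock and 949, 967 and 954 CPM with auxin. The groups did not overlap, but the difference was small, at 0.071 (SE 0.023, edgeR adjusted p = 0.0173), and was not called without the first mock-treated (0.064), the third mock-treated (0.057) or the second auxin-treated culture (0.062). Both genes hold TGACTCA, from positions -227 and -197, as printed above.

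The proline genes went in both directions. *PRO3*, for pyrroline carboxylate reductase at the last step, was at 183, 188 and 183 CPM with the mock and 124, 119 and 124 CPM with auxin. The groups did not overlap, and the log2 fold change was -0.59 (SE 0.026, edgeR adjusted p = 3.22e-08). *PRO1*, for γ-glutamyl kinase at the first step, was at 75.8, 81.7 and 79.1 CPM with the mock and 95.1, 91.7 and 90.5 CPM with auxin. It was higher without overlap, at 0.23 (SE 0.033, edgeR adjusted p = 1.39e-04). *PRO2*, for the reductase between them, was lower at -0.15, and at 0.095 with total counts.

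Isoleucine, valine and leucine share enzymes in the mitochondria. Of the 10 genes 9 were lower and 1 higher in edgeR's test, against 38.5% of all features in each direction. The median log2 fold change was -0.31. With total counts 6 were lower and 3 higher, against 16.8% and 64.6% of all features. Acetolactate synthase consists of a catalytic subunit from *ILV2* and a regulatory subunit from *ILV6*, which were lower at -0.12 and -0.58. *ILV5* was the most abundant transcript of the 54 by CPM, and went from 2748 ± 104 to 2206 ± 29.0 CPM (SD, n = 3; log2 fold change -0.32, edgeR adjusted p = 1.34e-05). The dihydroxyacid dehydratase gene *ILV3* and the threonine deaminase gene *ILV1* were lower at -0.38 and -0.18. *ILV1* and *ILV2* were at 0.063 and 0.12 with total counts.

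The cytosolic branched-chain aminotransferase gene *BAT2* was at 199.8, 199.8 and 203 CPM with the mock and 121, 127 and 132 CPM with auxin. The groups did not overlap, and at -0.67 (SE 0.032, edgeR adjusted p = 5.52e-08) this was the largest fall among the branched-chain genes. The mitochondrial *BAT1* was lower at -0.31. In the leucine branch, the isopropylmalate synthase gene *LEU4* was at 739, 751 and 736 CPM with the mock and 586, 593 and 618 CPM with auxin. It was lower without overlap, at -0.31 (SE 0.027, edgeR adjusted p = 3.77e-06). Its paralog *LEU9* was at 383, 401 and 374 CPM with the mock and 448, 445 and 441 CPM with auxin. *LEU9* was higher without overlap, at 0.20 (SE 0.029, edgeR adjusted p = 1.20e-04). The isomerase gene *LEU1* was lower at -0.20, and at 0.047 with total counts.

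In 8 steps the 54 genes include both members of a paralog pair, and the log2 ratio of their counts within each culture does not depend on how the libraries are scaled. The ratios of mock-treated and auxin-treated cultures did not overlap in any of the 8 pairs, and the exact permutation test (two-sided) gave p = 0.1 for each, the smallest that 3 against 3 cultures allow, and 0.1 after Benjamini-Hochberg adjustment over the 8 pairs. Among single features 78.6% did not overlap in CPM, and a share for the ratios of other gene pairs was not computed. The largest shift was in asparagine synthetase, where *ASN2* over *ASN1* went from -0.71 ± 0.049 to 0.32 ± 0.014 (log2 ratio, SD, n = 3), a difference of 1.02. *ASN1* was thus the more counted gene of the pair with the mock and *ASN2* with auxin, and both have the same coding length. *ARO9* over *ARO8* went from -1.83 ± 0.046 to -0.93 ± 0.043 (log2 ratio, SD, n = 3), a difference of 0.89.

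*LEU9* over *LEU4* rose by 0.52 on the log2 scale, from -0.94 to -0.43, and *SHM2* over *SHM1* by 0.37. In these 4 pairs the gene that was less counted with the mock gained on its partner. The reverse was seen for *BAT2* over *BAT1*, where the less counted *BAT2* lost a further 0.36 on the log2 scale, and for *LYS21* over *LYS20*, which went from -0.10 to -0.84. *SER33* over *SER3* and *ARO4* over *ARO3* fell by 0.31 and 0.12 on the log2 scale, so the less counted *SER3* and *ARO3* gained on their partners too. Apart from *LYS20* and *LYS21*, the pairs had coding identities from 56.2% for *ARO8* and *ARO9* to 82.4% for *SER3* and *SER33*, and no window of 100 bases in them was shared with another place in the genome.

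**Figure D4:**
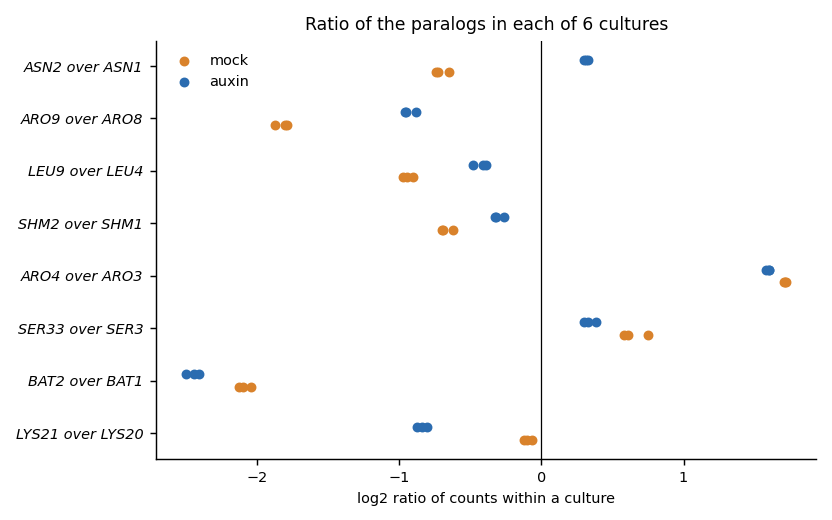
Log2 ratio of the counts of the paralogs named on the left, in each of the 3 mock-treated (orange) and 3 auxin-treated (blue) cultures. The groups are apart in all 8 pairs, where 78.6% of all single features were apart in CPM. The ratio of *ASN2* over *ASN1* crosses 0, from -0.71 to 0.32 on average.

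Of 22 regulators of the response, 13 were higher (59.1%), 5 lower (22.7%) and 4 not called in edgeR's test, with a median log2 fold change of 0.12, against 38.5% of all features in each direction. With total counts 16 were higher (72.7%) and 3 lower, near the 64.6% of all features that were higher there. The sensor kinase gene *GCN2* and its partners *GCN1* and *GCN20* were higher at 0.14, 0.11 and 0.31. The eIF2B subunit genes *GCD1* and *GCD6* were higher at 0.60 and 0.42, and *GCD1* was the most raised regulator, from 245 ± 2.23 to 370.5 ± 3.61 CPM (SD, n = 3; edgeR adjusted p = 1.14e-08). The largest fall was in *PCL5*, the cyclin that with the kinase Pho85 marks Gcn4 for degradation and is itself a known Gcn4 target, from 126 ± 8.37 to 76.0 ± 2.82 CPM (SD, n = 3; log2 fold change -0.73, edgeR adjusted p = 4.30e-07). *PHO85* was lower as well, at -0.43.

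Among the pathway activators, *LEU3*, *BAS1* and *LYS14* were higher at 0.32, 0.27 and 0.13, and the homeobox gene *PHO2*, whose product acts with Bas1, was lower at -0.31, a call not made with total counts. The GATA activator gene *GAT1* was lower, from 240.4 ± 12.2 to 159.8 ± 4.64 CPM (SD, n = 3; log2 fold change -0.59, edgeR adjusted p = 4.63e-07), and *GLN3* at -0.18, but at 0.069 with total counts. *GCN3*, *YIH1*, *SUI3* and *URE2* were not called.

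Related enzymes were measured in the same libraries. Over all features, 38.5% were called lower and 38.5% higher, and 2.55% were lower past the limit of 1. With total counts 16.8% of all features were lower and 64.6% higher. Of 9 further enzymes, of the same pathways or of alanine and aspartate transamination, 6 were lower, 2 higher and 1 not called in edgeR's test, with a median log2 fold change of -0.31, from -0.59 for the alanine:glyoxylate aminotransferase gene *AGX1* to 0.34 for *LYS5*, whose product activates the lysine enzyme Lys2. With total counts 5 were lower and 4 higher. Of 9 arginine genes 7 were lower and 1 higher, with a median of -0.88, from -2.88 for the argininosuccinate synthetase gene *ARG1* to 0.12 for *ARG8*, and 4 of them were past the limit of 1. With total counts 6 of the 9 were lower and 2 higher. All 17 genes of the sulfur pathway were lower, with a median of -0.56, from -2.77 for the cystathionine β-lyase gene *STR3* to -0.10 for *MET8*, and 7 were past the limit. *MET8* was at 0.14 with total counts, where 14 of the 17 were lower and 2 higher.

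Of 6 genes for amino acid breakdown and its activators 4 were higher (66.7%, against 38.5% of all features) and 2 lower in edgeR's test, with a median log2 fold change of 0.38. The higher ones were the enzyme genes *CHA1* and *ARO10* and the activator genes *PUT3* (0.50) and *CHA4* (0.26), and the lower ones the enzyme genes *PUT1* and *PUT2* (-0.089). *CHA1*, for the serine and threonine deaminase of catabolism, rose from 83.7 ± 3.32 to 174 ± 4.11 CPM (SD, n = 3), a log2 fold change of 1.06 (SE 0.033, edgeR adjusted p = 4.97e-09). The proline oxidase gene *PUT1* was the lowest of this list at -0.15, and at 0.10 with total counts, with *PUT2* at 0.16. With total counts 5 of the 6 were higher and none lower, against 64.6% and 16.8% of all features.

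**Figure D5:**
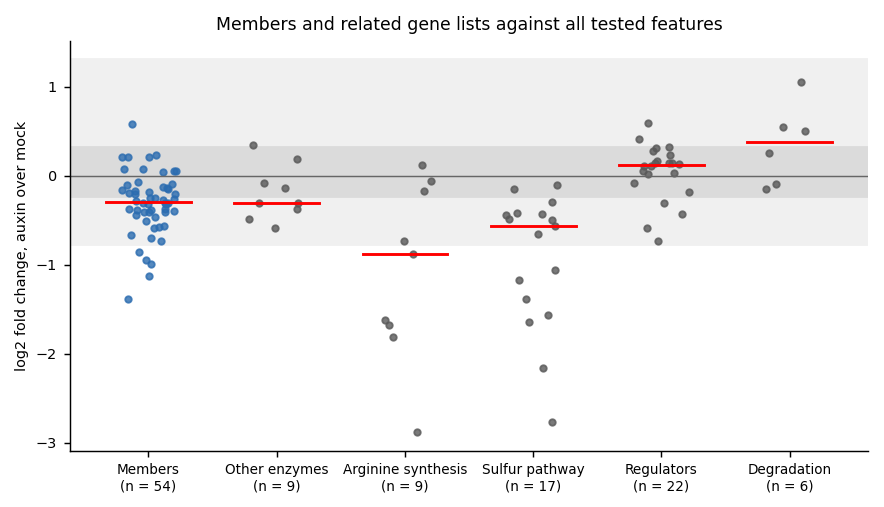
Log2 fold change (auxin over mock, TMM scaling) of the 54 genes (blue) and of related gene lists (dark grey), each point a gene and each red line a median. The light and dark bands hold the 5th to 95th and the 25th to 75th percentile of all 6397 tested features, from -0.78 to 1.31 and from -0.24 to 0.32; the medians are -0.30 for the 54 genes, -0.88 for arginine, -0.56 for sulfur and 0.38 for breakdown, and -0.049, -0.63, -0.32 and 0.63 with total counts.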

How the data were processed

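RNA of 3 mock-treated and 3 auxin-treated *RIO1-AID* cultures was depleted of rRNA and sequenced in paired-end mode from strand-specific libraries. The deposited values are raw whole-number counts per gene without normalization, which the authors obtained with STAR on sacCer3 (R64) after trimming with Trimmomatic. The annotation release and any removal of duplicate reads were not given in the sources used here. The study's methods describe the auxin treatment as a higher dose followed by a lower one, and the labels give a single dose.

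These counts were fitted with edgeR 4.0.16 in R 4.3.3, by the quasi-likelihood functions glmQLFit and glmQLFTest, with TMM scaling, filterByExpr and no term but treatment. Of 7445 features 6692 had counts and 6397 were tested, and p-values were adjusted over these by Benjamini-Hochberg. A call is an adjusted p of at most 0.05. The biological coefficient of variation was 3.78%, and the median standard error of a member's log2 fold change was 0.030. The test was checked on simulated counts with equal numbers of raised and lowered features, so this check does not bear on the choice of scaling. The labels call the cultures biological repeats.

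Paralog ratios were compared with exact permutation tests. Motifs and the uniqueness of windows of 100 bases were computed on the R64 reference with Python 3.11.15, and paralogs were aligned with Biopython 1.88. All 54 identifiers matched the annotation. *ARG5,6* did not match by name and is not analysed here.

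The members and the gene lists were chosen with earlier results of these data known. Values in every culture are given for *GCN4*, for the highest and lowest member of each pathway, for paralogs of opposite direction or differing by at least 1 on the log2 scale, and for members past both limits. Other lists are given as counts with their highest and lowest gene. Regulators and enzymes named beyond these, *ARO10* and *SRG1* among them, were chosen after their values were seen. The alternatives tried were DESeq2 1.42.0, scaling by RLE, by upper quartiles or by total counts, other filters on low counts, a replicate block, tests against a log2 fold change of 1, and leaving out each culture.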

Additional observations from a re-analysis of the deposited data

How the results depend on the processing

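Scaling by total counts moved the results most. It shifted the median of all features by 0.25 on the log2 scale and gave 17 higher, 26 lower and 1 changed member with a median of -0.049, against 16.8% lower and 64.6% higher of all features. *HIS5*, *TRP3*, *TRP5*, *HOM6*, *SER3* and *GCV2* lost their calls, *LYS20*, *TYR1* and *PHA2* gained one, and 12 members then turned direction, at 0.17 for *HIS6*, 0.11 for *LYS1*, 0.082 for *LYS12*, 0.079 for *TRP2*, 0.054 for *THR1*, 0.039 for *THR4*, 0.15 for *SER2*, 0.15 for *SHM2*, 0.095 for *PRO2*, 0.047 for *LEU1*, 0.063 for *ILV1* and 0.12 for *ILV2*. Of the 12 that turned, *LYS12*, *THR1*, *THR4* and *LEU1* also lost their calls, and *HIS6* was called neither with TMM factors nor with total counts. Scaling by total counts leaves out the TMM factors, and the shift of all features is its direct effect. The median of the members was -0.28 with upper-quartile scaling and -0.28 with at least 10 counts in every culture. Leaving out each culture gave medians from -0.32 to -0.29, 5 to 7 higher, 41 to 43 lower and 2 to 3 changed members, with *HIS6* from -0.15 (without mock replicate 1) to 0.0047 (without mock replicate 3) and *LYS20* from -0.0032 (without mock replicate 1) to 0.054 (without mock replicate 3). Under each of RLE scaling, upper-quartile scaling, DESeq2, either filter and the replicate block, 53 of the 54 members kept their direction and their side of the threshold. The exceptions were *LYS4*, not called under RLE (adjusted p = 0.0506), DESeq2 (adjusted p = 0.0667) and no filter (edgeR adjusted p = 0.072), and *TYR1*, called under upper-quartile scaling (0.071), the filter of 10 counts (0.073) and the block (0.058). *HOM3* was a changed member too, 3 in all, under DESeq2 and no filter. The least counted member, *HIS6* (mean 1554 counts), had a standard error of 0.083, against a median of 0.030 over the members.

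Whether the replicate numbers pair the cultures cannot be decided from 3 cultures per group. Deviations from the group means correlated at 0.32, 0.047 and 0.50 for numbers 1, 2 and 3. Auxin replicates 1 and 3 correlated best with the mock replicate of the same number, and auxin replicate 2 with mock replicate 1 (0.32). With the replicate block 8 members were higher, 43 lower and 2 changed, with a median of -0.30, and 5159 of all features were called instead of 4927.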

Other observations

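Cytosolic aminoacyl-tRNA synthetases load amino acids onto tRNA. Of 18 genes listed for them, 12 were lower, 1 higher and 5 not called in edgeR's test, with a median log2 fold change of -0.13. In all, 66.7% were lower, against 38.5% of all features and 58.0% of the 882 features with a mean of at least 217 CPM. The 18 genes ran from -0.49 for the asparaginyl-tRNA synthetase gene *DED81* (852 ± 19.6 to 606 ± 12.7 CPM, SD, n = 3) to 0.17 for the tyrosyl-tRNA synthetase gene *TYS1* (404 ± 14.1 to 454 ± 2.64 CPM, SD, n = 3). With total counts 3 were lower (16.7%) and 11 higher (61.1%), with a median of 0.12, close to the 16.8% and 64.6% of all features, whose median was 0.25 there.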
